A study of Mus musculus with 4 samples.

Results

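Cytosolic ribosomal proteins were followed in B16F10 cells, a pigmented mouse melanoma line from the C57BL/6 strain, kept without or with plumbagin, a plant naphthoquinone. Total RNA was read on 4 Affymetrix 3-prime arrays. Cells of the arrays called control 1 and control 2 had MilliQ only, at 0 µM plumbagin. Those of plumbagin 1 and plumbagin 2 had 2 µM for 24 h, and no other agent or allele is named. Whether both samples of a condition came from separate cultures is not stated, so the spread between these samples may be technical. The p-values and SEs rest on that spread and on a variance that limma shares over all genes. An SE is thus not the replicate spread of its gene alone. Members were the genes whose symbol is Rplp0, Rplp1, Rplp2, Rpsa, or Rpl or Rps followed by a number, without pseudogenes, ribosomal protein S6 kinases and the Rps19 binding protein. The rule found 71 of 17097 named genes: 38 of the large subunit, 24 of the small subunit, 3 of the P stalk and 6 paralogs. Each gene was read through its brightest probe set. Rpl5 and Rps3 were annotated only on probe sets that carry several gene symbols and were not analysed here.

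Each cytosolic ribosome joins a large (60S) subunit, which forms peptide bonds, to a small (40S) subunit, which decodes the message. Ribosomal proteins are made in near-equal amounts from single-copy genes, and their mRNAs are among the most abundant of a growing cell. Most of these mRNAs begin with a cytosine followed by a run of pyrimidines, the 5′ terminal oligopyrimidine (TOP) tract, through which mTORC1 and LARP1 control their translation. Translational control of this kind does not show in an mRNA level, which is what the arrays read.

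The start sites below were searched for such a tract, which the symbol rule did not use. The sequences are RefSeq start regions of GRCm38.p6, 5′ to 3′ on the strand of the gene. Capitals mark the longest pyrimidine tract of at least 8 bases that begins with C and touches the 25 bases on either side of the annotated start. Where tracts were equally long, the first was marked. A marked tract can lie wholly before the annotated start, as in Rps27l, where it begins at -22 and has 9 bases. A further annotated start of Rps27l had no such tract. Where no such tract was found, the 15 bases on either side of the start are shown without capitals. The first 6 are core subunit and stalk members that hold such a tract. The next 3 are paralogs, and Rpl41 is the core member with the lowest difference. Some other core and stalk members, among them Rps2, Rps13 and Rplp0, had no such tract, so the examples do not show its share.
Rps6, chr4:86857347-86857376, minus strand: aagtcgggCCTCTTTTTCgtgacgcctccc
Rps18, chr17:33955646-33955675, minus strand: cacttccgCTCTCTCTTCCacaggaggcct
Rps9, chr7:3704028-3704057, plus strand: cgccttgtCTCTCTTTgtctcgggcctgag
Rpl28, chr7:4792955-4792984, plus strand: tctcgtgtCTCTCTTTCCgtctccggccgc
Rpl35, chr2:39005117-39005146, minus strand: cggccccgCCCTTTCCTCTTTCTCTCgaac
Rplp2, chr7:141447639-141447668, plus strand: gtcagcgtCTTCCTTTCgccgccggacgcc
Rpl22l1, chr3:28805503-28805532, plus strand: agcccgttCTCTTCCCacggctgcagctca
Rps27l, chr9:66946056-66946085, plus strand: cgcctccaCTCCTCTCCactcctccccgcc
Rpl7l1, chr17:46782642-46782671, minus strand: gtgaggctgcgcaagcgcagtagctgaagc
Rpl41, chr10:128549154-128549183, minus strand: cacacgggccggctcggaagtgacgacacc

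Of the 71 members, 57 matched a RefSeq start region of 300 bases. Of these 57, 31 (54.4%) held such a tract, against 21.8% of all 27025 genes with a start region. The ETS core CCGGAAG, searched on both strands of the whole 300 bases, was found in 25 members (43.9%) against 9.93% of genes. The YY1 element AAGATGGC, also on both strands, was found in 5 members (8.77%) against 3.19%. The TATA box TATAAA was found in 7 members (12.3%) against 15.7%, and the MYC E-box CACGTG in 6 (10.5%) against 8.09%, both on either strand. The motifs were counted independently, so a base may belong to several. Annotated starts can lie some bases away from the start used in these cells, and a match is not a bound site. Members with a pyrimidine tract had a median difference between plumbagin and control of -0.023 (log2) and those without had -0.021.

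Ribosomal protein transcripts were almost level between plumbagin and control. In RNA of whole cultures, fewer cells of a kind and less RNA per cell cannot be told apart. Across the 71 members the median difference, plumbagin minus control, was -0.023 on the log2 scale, beside -0.012 over all 17097 genes. It was -0.051 over the 8637 genes above background, a level given below, and -0.024 over the 68 members among them. Of the 71 members, 67 lay within 0.1 of 0. The extremes were -0.22 for Rpl7l1 and 0.18 for Rps15a, and both lay outside the core of bright members described next. Limma, fitted over all genes, called 0 members and 0 genes at an adjusted p of 0.05 (0.0% of all genes), and every member had an adjusted p of 1. At an unadjusted p of 0.05, 0 members passed, against 0.988% of all genes (169). The smallest unadjusted p of a member was 0.167, for Rpl7l1. The limma 95% interval of the difference held 0 for all 71 members. It lay inside a 1.5-fold change (0.58 on the log2 scale) in either direction for all 71, and for 70 when the spread was modelled with a trend on brightness, where Rpl7l1 reached -0.64. The median half-width of the intervals was 0.22, and 0.17 with the trend. Limma draws the variance of each gene toward a value shared by all genes, here an SD of 0.104. In the main fit this kept the narrowest half-width of a member at 0.206. Only Rpl7l1 lay farther than that from 0. The other members could therefore not exclude 0 or pass an unadjusted p of 0.05, however close their arrays were.

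The signal of most members was near the top of the array. Of the 71, 60 had a mean of at least 11, where the highest value of any probe set on control 1 was 12.96, and 68 lay above 5.05, the background level given by the 95th percentile of 41 olfactory receptor genes. Strong signals on an array can be compressed, and the part of this in the small differences was not tested. Members could also be compared with the 131 other genes with a mean of at least 11. These sets were not matched in brightness: the median level was 11.81 for the bright members and 11.38 for the others. The others also include Fau and ribosomal protein pseudogenes such as Rpl34-ps1. The median absolute difference was 0.035 for the bright members and 0.043 for those other genes, and 98.3% of the bright members against 82.4% of the others lay within 0.1 of 0. The 4 arrays of a bright member spanned 0.10 (median), those of the other bright genes 0.18. Among the members' own probe sets, the 17 with a mean between background and 9 had a median absolute difference of 0.057, and the 88 above 11 had 0.031. These comparisons are descriptions without a test, because genes of an array are not replicates.

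**Figure D1:**
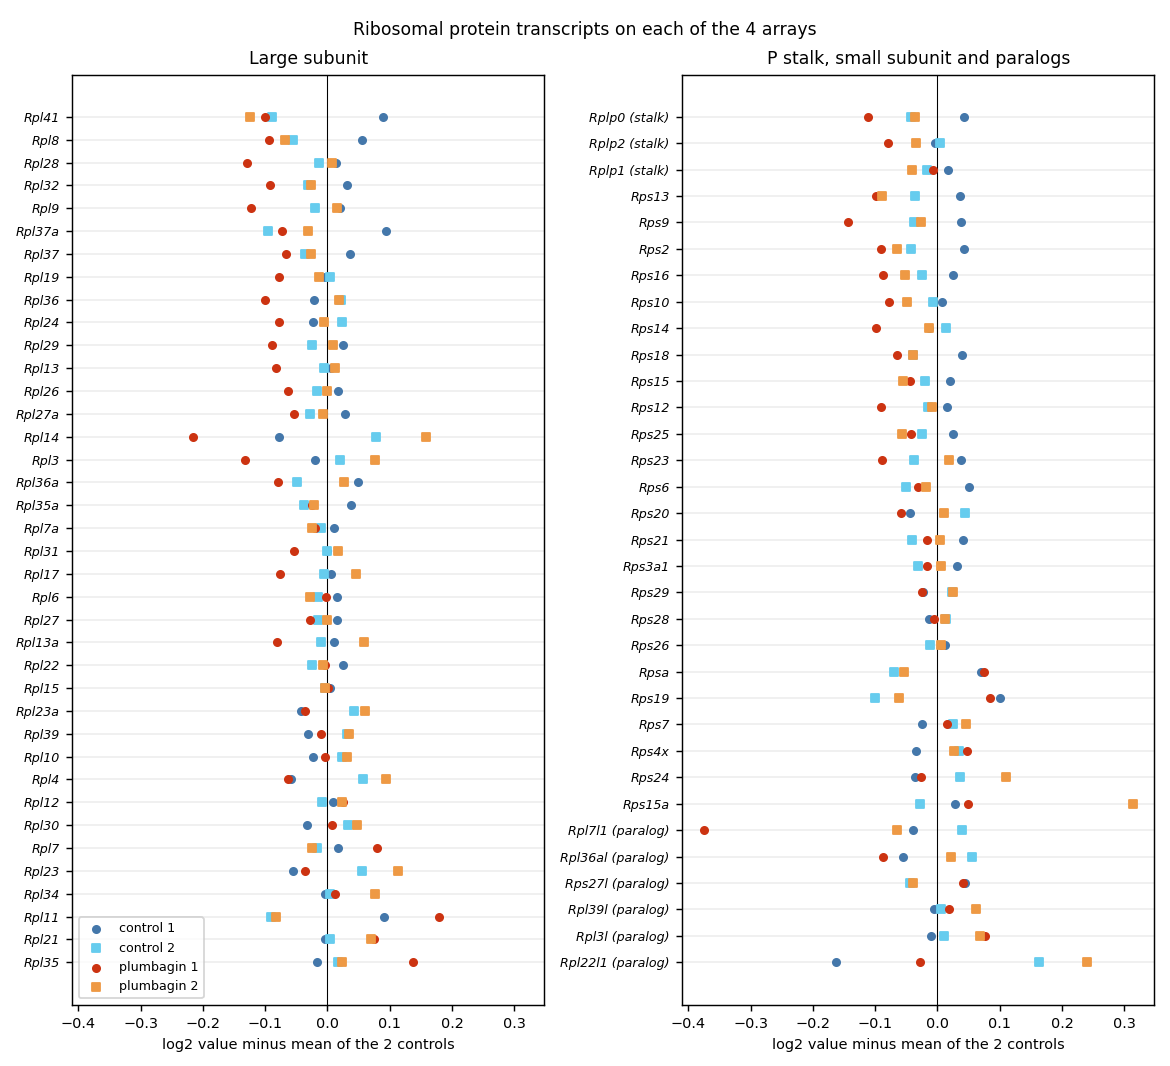
Each row is a member and each point an array: the horizontal axis is the log2 value minus the mean of the 2 controls, with circles for arrays numbered 1 and squares for arrays numbered 2. Nearly all points lie within 0.2 of 0, and plumbagin 1 is the lowest point in 35 of 71 members.

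Signs were uneven but small. The mean was lower with plumbagin in 47 of the 71 members (66.2%), beside 55.2% of all genes and 65.1% of the 8637 genes above background. Both plumbagin arrays lay below both controls in 14 members (19.7%), beside 15.2% of all genes, and above both in 7 (9.86%), beside 10.2%. Among the 68 members above background these counts were 14 (20.6%) and 4 (5.88%), beside 18.3% and 5.66% of genes above background. Among the 60 members with a mean of at least 11 they were 13 (21.7%) and 3 (5.0%). The 131 other genes of that brightness had 9.16% and 5.34%. Lower means made up 68.3% of these bright members and 58.8% of the other bright genes, with medians of -0.024 and -0.0095. This gap was not tested. The count of members with a lower mean was 42 with the arrays centred on their medians, 39 after cyclic loess and 37 after a further quantile normalization. The count moved with a single array. Plumbagin 1 was the lowest of the 4 arrays in 35 members (49.3%), beside 29.8% of all genes and 41.7% of those above background. It lay below both controls in 39 members, while plumbagin 2 lay below both in 17. Over all genes the shares below both controls were 34.9% for plumbagin 1 and 36.2% for plumbagin 2. Without plumbagin 1 the median turned to 0.0037 and 35 of 71 members were lower. The mean of 18 hybridization spike-in probe sets was also highest on plumbagin 1 (9.58 on the log2 scale, where the remaining arrays had 8.46 to 8.77), and the part of this in the result was not tested.

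**Figure D2:**
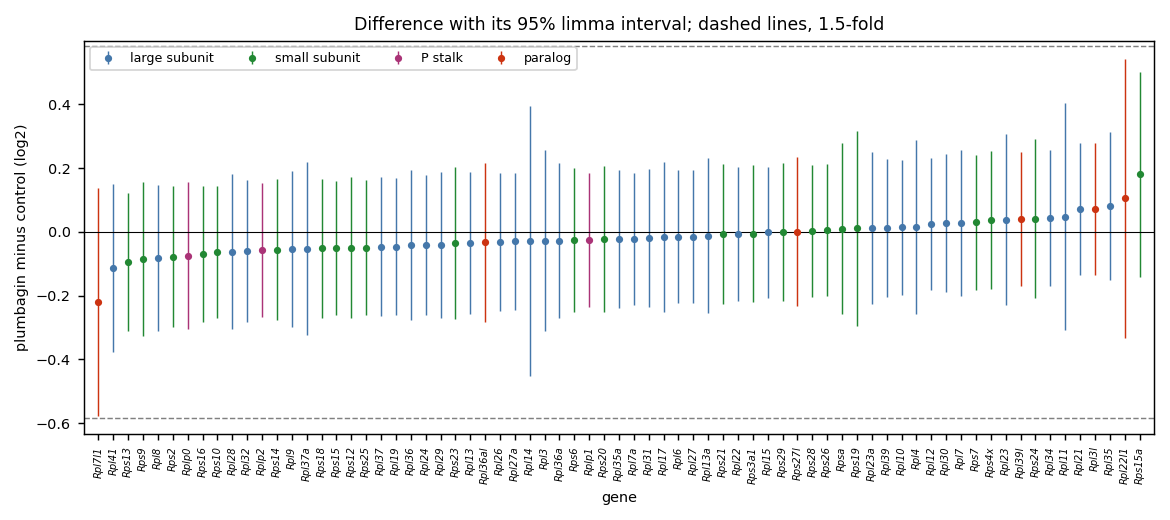
For each of the 71 members, in order, the point is the difference between the group means (log2, n = 2 arrays per group) and the bar its 95% limma interval, coloured by subunit. Every interval crosses 0 and none reaches the dashed lines at 1.5-fold. The variance that limma shares over all genes keeps the narrowest half-width at 0.206.

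In the large subunit, 26 of 38 members had a lower mean and 12 a higher, with a median of -0.021 and a range from -0.11 to 0.08. Both plumbagin arrays lay below both controls in 4 of them and above in 4, which is 10.5% each, beside 15.2% and 10.2% of all genes. All 38 lay above background, where the shares over all genes were 18.3% below and 5.66% above. Rpl41, the smallest ribosomal protein, read 12.48 (control 1), 12.30 (control 2), 12.29 (plumbagin 1) and 12.27 (plumbagin 2) on the log2 scale. The plumbagin arrays lay just under control 2, while control 1 stood above the other 3 arrays. Its difference was -0.11 ± 0.10 (SE moderated by limma, as for all genes here, n = 2 per group) and -0.024 without control 1. A further bright probe set of Rpl41 gave -0.040. Rpl8, a protein at the peptidyl transferase centre, read 11.88 and 11.77 in the controls and 11.73 and 11.76 with plumbagin, a difference of -0.08 ± 0.09, and -0.027 without control 1. Again control 1 was the array that stood apart.

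At the other end of the large subunit, Rpl35, which lies at the peptide exit, read 11.33 and 11.37 in the controls and 11.49 and 11.38 with plumbagin, a difference of 0.08 ± 0.09. Plumbagin 1 stood above the other 3 arrays, plumbagin 2 exceeded control 2 only narrowly, and the difference was 0.023 without plumbagin 1. Its other 3 probe sets disagreed in sign, at -0.087, -0.014 and 0.020. Rpl21 read 11.47 and 11.48 in the controls and 11.55 and 11.54 with plumbagin. Its groups did not overlap, at a difference of 0.07 ± 0.08, and a further bright probe set gave 0.12. The names of both end in x_at, so their probes may bind other transcripts. A probe set of Rpl21 below background gave -0.076. Rpl34 had a difference of 0.04 ± 0.08. Among the 10 measured proteins that line or surround the exit tunnel, 6 were lower and 4 higher, with a median of -0.011, and 0 passed the test.

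Rpl11 joins Rpl5 and the 5S rRNA in a particle that can hold back MDM2, the ubiquitin ligase of p53. Rpl11 read 11.22 (control 1), 11.03 (control 2), 11.30 (plumbagin 1) and 11.04 (plumbagin 2). Both arrays numbered 1 were higher than both arrays numbered 2, and the treatment difference of 0.05 ± 0.13 was smaller than the gap between the controls. Rpl23, which can also bind MDM2, read 11.95 and 12.06 in the controls and 11.97 and 12.12 with plumbagin, a difference of 0.04 ± 0.10. Here both arrays numbered 1 were the lower ones. Rpl26, which binds the p53 mRNA, differed by -0.03 ± 0.08. Outside the symbol rule, Mdm2 itself differed by -0.10 ± 0.08. The 5S particle assembly factors Rrs1 and Rpf2 differed by -0.27 ± 0.32 and -0.012 ± 0.31, and none of these passed the test.

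The P stalk recruits the elongation factors to the large subunit. Rplp0, its base, read 12.28 and 12.19 in the controls and 12.13 and 12.20 with plumbagin, so plumbagin 2 lay between the controls and the groups overlapped (-0.07 ± 0.09). Rplp2 read 12.02 and 12.03 in the controls and 11.94 and 11.99 with plumbagin, below both controls by a small margin (-0.06 ± 0.08). Rplp1 differed by -0.024 ± 0.08. All 3 means were lower, and 2 of 3 after a further quantile normalization.

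In the small subunit, 16 of 24 members had a lower mean and 8 a higher, with a median of -0.024. Both plumbagin arrays lay below both controls in 8 of the 24 (33.3%, beside 15.2% of all genes and 18.3% of those above background) and above both in 1 (4.17%, beside 10.2% and 5.66%). The member above both controls was Rps15a, whose own signal lay below background. None of the 24 passed the test. Rps13 read 11.56 and 11.49 in the controls and 11.42 and 11.43 with plumbagin, and its groups did not overlap (-0.09 ± 0.08). Without control 1 its difference was -0.058. A further probe set of Rps13 above background gave -0.097. Rps2, at the mRNA entry side of the small subunit, read 12.18 and 12.09 in the controls and 12.04 and 12.07 with plumbagin (-0.08 ± 0.08, and -0.035 without control 1). Rps16 read 11.87 and 11.82 in the controls and 11.76 and 11.80 with plumbagin (-0.07 ± 0.08). In Rps9, plumbagin 1 (11.42) was under both controls (11.60 and 11.52) and plumbagin 2 (11.53) was between them (-0.09 ± 0.09).

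Rps6, the substrate of the S6 kinases, read 12.07 and 11.97 in the controls and 11.99 and 12.00 with plumbagin (-0.025 ± 0.08). Both plumbagin arrays lay between the controls. The higher means of the small subunit were also small: Rps24 differed by 0.04 ± 0.09, Rps4x by 0.04 ± 0.08 and Rps7, another MDM2-binding protein, by 0.03 ± 0.08. Rps15a was read only through a probe set below background (3.72 and 3.67 in the controls, 3.75 and 4.01 with plumbagin), so its difference of 0.18 ± 0.12 rests on plumbagin 2 at a signal that is no sign of expression. Rps19, the gene most often mutated in Diamond-Blackfan anaemia, read 11.44 and 11.24 in the controls and 11.42 and 11.28 with plumbagin. Its arrays were split by number, not by treatment (0.011 ± 0.11). Over the 14 measured genes linked to that anaemia, 7 were lower and 7 higher, with a median of 0.0013.

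Among members above background, the lowest and the highest difference both belonged to paralogs, additional copies that can replace or assist a core protein. Rpl7l1, a homologue of Rpl7 that belongs with large-subunit assembly factors, read 8.71 and 8.79 in the controls and 8.37 and 8.68 with plumbagin. Both plumbagin arrays were below both controls, plumbagin 1 clearly and plumbagin 2 narrowly, at a difference of -0.22 ± 0.13 (1.16-fold lower, adjusted p = 1 by limma). Its other probe sets gave -0.25 and -0.046, and without plumbagin 1 the difference was -0.065. Rpl7 itself differed by 0.03 ± 0.09. Rpl22l1, the paralog of Rpl22, read 10.49 and 10.82 in the controls and 10.62 and 10.89 with plumbagin. The gap between the controls exceeded the treatment difference of 0.11 ± 0.16, which was -0.058 without control 1 and 0.27 without control 2. Rpl22, read at 10.67 and 10.63 in the controls and 10.65 and 10.64 with plumbagin, was level on its brightest probe set (-0.0056 ± 0.08).

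Rps27l, a paralog of Rps27 that is induced by p53 in many cells, read 11.32 and 11.23 in the controls and 11.32 and 11.24 with plumbagin. The values of each number were almost the same in both groups, at a difference of 0.0011 ± 0.09 and an interval from -0.23 to 0.23. Rpl36al and its partner Rpl36a differed by -0.03 ± 0.09 and -0.03 ± 0.09. Rpl3l, known from striated muscle, and Rpl39l, known from male germ cells, lay below background on every array (3.18 to 3.27 and 3.81 to 3.88), while their partners Rpl3 and Rpl39 were bright and differed by -0.03 ± 0.11 and 0.012 ± 0.08. Of these paralogs and partners, Rpl3, Rpl7, Rpl22, Rpl22l1, Rpl36a, Rpl36al, Rpl39 and Rps27l took both signs over the other settings.

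Several members serve as reference genes in expression assays. Among 7 such genes, 6 had a lower mean and the differences ran from -0.07 for Rplp0 to 0.015 for Rpl4. Rpl32 differed by -0.06 ± 0.08, Rps18 by -0.05 ± 0.08, Rpl19 by -0.05 ± 0.08, and Rpl13a by -0.012 ± 0.09. Rps29 was the closest to level, at 12.27 and 12.31 in the controls and 12.26 and 12.31 with plumbagin, with an interval from -0.22 to 0.22. With a further quantile normalization 4 of the 7 were lower.

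The number in a sample's title moved with these transcripts about as much as the treatment. The median absolute difference was 0.036 between arrays numbered 1 and 2 and 0.035 between treatments, and the number difference was the larger in 36 of the 71 members. Over all genes these medians were 0.099 and 0.072. Both arrays numbered 1 lay above both numbered 2 in 9 members, led by Rpl11 (0.22), Rps19 (0.17) and Rpsa (0.13), and below in 17, led by Rpl22l1 (-0.30), Rpl14 (-0.27) and Rpl4 (-0.14). These are 12.7% and 23.9% of the members, beside 30.03% and 18.9% of all genes and 28.6% and 28.2% of genes above background. Between plumbagin 1 and control 1 the members' median was -0.054 with 51 of 71 lower. Between plumbagin 2 and control 2 it was 0.014 with 23 lower. The labels do not say what the number stands for.

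**Figure D3:**
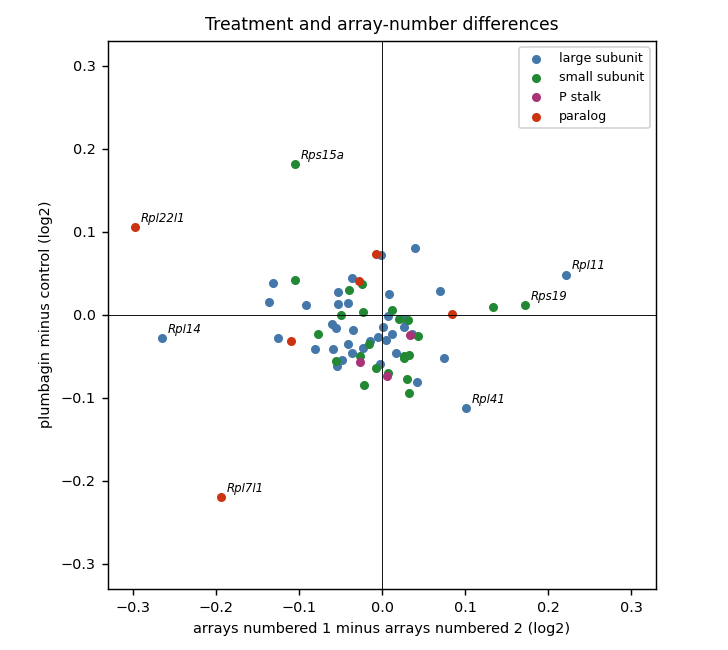
Each point is a member: the horizontal axis is the mean of the 2 arrays numbered 1 minus that of the 2 numbered 2, the vertical axis plumbagin minus control, both in log2 on the same scale. The cloud is about as wide as it is high, with Rpl22l1, Rpl14 and Rpl11 farthest out along the horizontal axis and Rpl7l1 and Rps15a along the vertical one.

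Ribosomal protein genes have many processed pseudogenes, and their part in the choice of probe sets was not tested. Probe sets whose name ends in x_at, which hold probes that may bind other transcripts, were 21.1% of those chosen for the members and 2.63% of those chosen for all genes. Names ending in a_at made up 49.3% and 12.7%. Of the members, 30 had several probe sets above background. In 15 of these 30 the probe sets had both signs, and the range of differences within a gene had a median of 0.049. Rps24 had the widest range, from 0.0096 to 0.27, the highest coming from a dim probe set at 5.96. Rpl22 had a second probe set that read 7.22 and 7.98 in the controls and 6.70 and 8.17 with plumbagin. It followed the array number by far more than the brightest probe set of the same gene, and its treatment difference was -0.17.

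Other genes of the ribosome pathway were read from lists of known members. Fau, which encodes a small-subunit protein fused to a ubiquitin-like domain, differed by -0.06 ± 0.09. Of elongation factors and other TOP mRNAs, 14 of 22 were lower, the median was -0.016 and 0 passed the test. The median was 0.0042 with 10 of 22 lower without plumbagin 1, -0.037 without plumbagin 2, and -0.0047 with 11 of 22 lower after cyclic loess. Eef1a1, which brings tRNA to the ribosome, and Pabpc1, the poly(A) binding protein, differed by -0.014 ± 0.08 and -0.023 ± 0.08; both were picked after their values were seen. By smallest p this list was led by Gas5, a snoRNA host RNA near background (5.05 and 4.43 in the controls, 5.29 and 5.22 with plumbagin, 0.51 ± 0.23), Ipo5, an importin (-0.18 ± 0.14), Eif2a (0.29 ± 0.23) and Eef2, the translocation factor (-0.15 ± 0.12). None of the 4 passed.

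Genes that escort ribosomal proteins or assemble the subunits had lower means in 18 of 18, with a median of -0.18, against -0.023 for the ribosomal proteins and -0.051 for all genes above background. The lists were not matched in brightness. The median level was 7.83 for these genes, 8.28 for the mitochondrial ribosomal proteins read below and 11.70 for the cytosolic ones. The gap between the lists was not tested, and 0 of the 18 genes passed over all genes. Grwd1, the escort of Rpl3, read 7.40 and 7.38 in the controls and 6.75 and 7.24 with plumbagin (-0.40 ± 0.18). Mrto4 differed by -0.31 ± 0.14, Bysl by -0.26 ± 0.13 and Pno1 by -0.22 ± 0.13. In these 4 genes both plumbagin arrays lay below both controls, as in 6 of the 18 (33.3%, beside 15.2% of all genes and 18.3% of those above background). The median was -0.0067 without plumbagin 1, with 11 of 18 lower, -0.32 without plumbagin 2, and -0.12 with 14 of 18 lower after cyclic loess. Mitochondrial ribosomal proteins, which form the separate ribosome of the organelle, were lower in 63 of 73 with a median of -0.13. This median was -0.08 without control 1 and -0.20 without control 2. It was -0.068 after cyclic loess and -0.08 after a further quantile normalization, where that of all genes above background was 0.0043 and -0.0062.

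**Figure D4:**
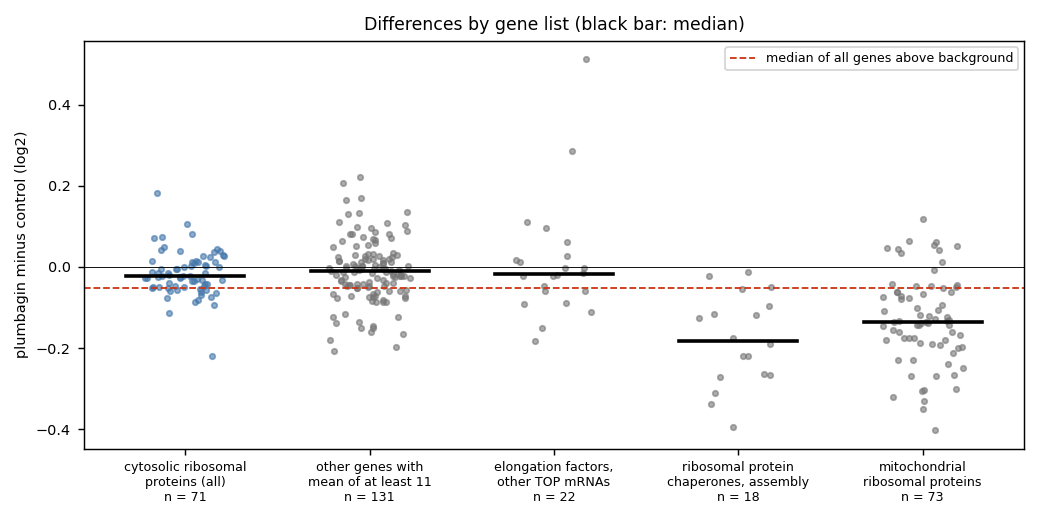
Points are genes, grouped by list along the horizontal axis; the vertical axis is plumbagin minus control (log2), black bars are medians and the dashed line is the median of all genes above background (-0.051). Cytosolic ribosomal proteins lie close to 0 with a median of -0.023, and the assembly and mitochondrial lists have medians of -0.18 and -0.13. The lists are not matched in brightness, with median levels of 11.70, 7.83 and 8.28 in that order.

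Of mTORC1 and TOP control genes, 8 of 11 were lower with a median of -0.032, and 0 passed. The median ran from -0.15 without plumbagin 2 to 0.037 without plumbagin 1, where 5 of 11 were lower, and was 0.031 after cyclic loess. Eif4ebp1, a translation repressor and mTORC1 substrate, read 10.29 and 10.23 in the controls and 10.11 and 10.16 with plumbagin (-0.13 ± 0.08). Mtor read 7.29 and 7.05 in the controls and 6.997 and 7.03 with plumbagin (-0.16 ± 0.11), so that control 1 stood above the other 3 arrays. Rptor differed by -0.13 ± 0.09, Rps6kb2, below background, by -0.15 ± 0.12, and Larp1, picked after its value was seen, by -0.023 ± 0.10. Genes of ribosome stress and quality control were lower in 7 of 10 with a median of -0.09. The median was -0.018 after cyclic loess, -0.030 after a further quantile normalization and -0.022 without plumbagin 1, with 6 of 10 lower in each, and -0.17 without plumbagin 2. Zfp598, which marks collided ribosomes with ubiquitin, read 7.11 and 7.09 in the controls and 6.63 and 6.85 with plumbagin (-0.36 ± 0.11), and Gcn1, the sensor that activates GCN2, read 6.99 and 6.70 in the controls and 6.46 and 6.47 with plumbagin (-0.38 ± 0.12). Both had groups that did not overlap and passed an unadjusted p of 0.05 (0.0247 and 0.0335), but their limma adjusted p was 1. Usp10 differed by -0.29 ± 0.12 and Edf1 by -0.14 ± 0.09, without passing.

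The cells carried melanocyte-lineage transcripts: 7 of 7 markers (Tyr, Tyrp1, Dct, Pmel, Mlana, Sox10 and Mitf) had means between 10.85 and 12.32. All 7 fibroblast and all 5 epithelial markers lay below background, as did 5 of 6 leukocyte markers, Cd3e excepted, and 4 of 5 endothelial markers, Kdr excepted. In the mean log2 value of each list the groups overlapped, except that the leukocyte list read 4.13 and 4.11 in the controls against 4.08 and 4.01 with plumbagin.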

How the data were processed

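Per the labels, RNA of 4 samples was hybridized to Affymetrix mouse arrays, 1 sample per array. The deposited values were log2 expression values of 45141 probe sets; RMA, Expression Console and Transcriptome Analysis Console (Affymetrix) are named per the submitters' processing notes, without versions. RMA removes a shift shared by most genes and compresses weak signals.

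Probe sets with 1 gene symbol (28898) were named from the platform annotation, with symbols updated through the Entrez number for 28689 against RefSeq genes of GRCm38.p6; 551 with several symbols and 15588 unnamed ones were left out. Each of 17097 genes was read through its probe set with the highest mean. Groups came from sample titles. Differences were fitted in R 4.3.3 by lmFit and eBayes (limma 3.58.1), two-sided, with Benjamini-Hochberg adjustment over all genes. Precision is limited by 2 arrays per group. The members and lists were chosen with earlier results of these data known, so no list was tested. Named members were the 8 in each direction with the smallest p above background and those of fixed role lists; up to 4 genes of each outside list were named by smallest p. Rpl14, Rps6, Rps15a, Rps19 and Rpsa, and genes said to be picked later, lie outside this rule.

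The fit was tested on simulated data with independent arrays, in which 200 genes were moved by 2 on the log2 scale. Over 20 simulations 90.9% of the moved genes were called, and 175 of 3810 calls were genes not moved. Differences as small as those of the members were not simulated, so the power to call them was not tested. The alternatives were 15: other probe set choices, filters, normalizations, variance models, the replicate number as a block, and each array left out.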

Additional observations from a re-analysis of the deposited data

How the results depend on the processing

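All 15 alternatives were run. Limma called 0 members and 0 genes under each of them, and the smallest adjusted p of a member was 0.792; at an unadjusted p of 0.05 the main fit had 169 genes. The members' median ranged from -0.044 without plumbagin 2 to 0.0037 without plumbagin 1, and the count of lower members from 35 to 54 over the same arrays. With an array left out, the large-subunit median ranged from -0.059 to 0.010 and the small-subunit median from -0.062 to -0.011. With x_at and s_at probe sets left out the small-subunit median was 0.0028, from fewer genes. In that setting Rps24, read through its dim probe set, had 0.27 and an unadjusted p of 0.0327 (adjusted p = 1). With every probe set on its own 83 of 134 were lower. The replicate number as a block left the members' median at -0.023, with 0 calls and 434 genes at an unadjusted p of 0.05; same-numbered arrays deviated together from their group means (r = 0.54 over 17097 genes, a description across genes), but the labels do not say that numbers pair samples. Of 36 named members, 18 had both signs over the alternatives, 11 of them without leaving out an array. Some of these settings read or average probe sets below background. The lowest value of Rpl21, -0.076, came from such a probe set, while its 2 probe sets above background gave 0.07 and 0.12. Where 1 array stood for a group, its spread was taken from the remaining group. Of the 71 members, 68 lay above background and 3 did not.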
